A study of Mus musculus with 246 samples.

Results

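The genes described here encode the proteins of the cytosolic ribosome. They were chosen by name: a symbol of the form Rpl (large subunit) or Rps (small subunit) with a number, or Rplp0, Rplp1, Rplp2 or Rpsa, without the "-ps" that marks a named pseudogene, and with estimated counts that summed to at least 10000 over all libraries. Of the 56691 genes in the deposited table, 89 had such a name and 82 reached the minimum, 48 of the large and 34 of the small subunit. Just inside the minimum were Rps3a2 (11367 counts), Rps4l (29182) and Rps27l (37072), and just outside it was Rpl6l (8375). The gene annotation types Rps3a2 and Rps4l as pseudogenes, and both were kept because the choice was by name. All 82 genes passed the filter on low counts. Genes such as Fau, Rack1 and Rpl36al also encode proteins of this ribosome but have other names, and they are given as a list of their own.

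RNA was sequenced from 6 brain regions of each of 41 adult male mice of the outbred CD1 stock. The regions were mPFC (infralimbic and prelimbic cortex), ACC (anterior cingulate cortex), Nacc (nucleus accumbens), BLA (basolateral amygdala), DMT (dorsomedial thalamus) and vHipp (ventral hippocampus). Each was punched on both sides and pooled within a mouse. For Nacc the authors' methods name the shell, and their introduction names the core. Early life adversity (ELA) was limited bedding and nesting material for dam and litter in the first days after birth. SAFit2, an inhibitor of FKBP51, a cochaperone that acts on the glucocorticoid receptor, was given as a slow-release gel injected into the dam, so that pups received it through the milk, and the vehicle was the gel without it. The 3 conditions were control with vehicle (Ctrl_Veh), ELA with vehicle (ELA_Veh) and ELA with SAFit2 (ELA_SAFit2). Each was present in a set taken without a social encounter (NoInteraction, 7, 7 and 7 mice) and a set taken after 10 min of social interaction (SocialInteraction, 6, 7 and 7 mice). No control group received SAFit2, and the sets alternated over runs of consecutive mouse numbers, with 1 set in each run.

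A ribosome is built from ribosomal RNA and about equal amounts of each ribosomal protein, and the genes of these proteins are among the most steadily active in any cell. Many of their mRNAs begin with a C followed by an unbroken run of pyrimidines (C or T), the start of a terminal oligopyrimidine (TOP) sequence, through which mTORC1 and the RNA-binding protein LARP1 set how strongly they are translated. In neurons, ribosomal protein mRNAs are also found in dendrites and axons. A read count measures the mRNA and not its translation, and in a punch of mixed tissue fewer cells of a type and less RNA per cell cannot be told apart.

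The start sites of some of the genes described below, picked with their values known, are given as 30 bases, 10 before and 20 from the annotated start, 5′ to 3′ on the gene's strand, from RefSeq for GRCm38.p6. Capitals mark a C followed by at least 4 further C or T that begins within 5 bases of the start. The first of these genes were higher in Nacc or lower in mPFC, the next moved in DMT and vHipp, Rpl35a, Rps2 and Rpsa differed between mice, Rpl4 was higher in vHipp, and Rpl22 and Rpl22l1 are the paralogs that moved in opposite directions.
Rps27, chr3:90213629-90213658 (−): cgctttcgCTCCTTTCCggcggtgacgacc
Rpl27a, chr7:109519185-109519214 (+): cgtgagCTCCTCCCTTTTCCCTTTCTgcca
Rpl34, chr3:130730318-130730347 (−): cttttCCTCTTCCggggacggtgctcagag
Rps26, chr10:128626487-128626516 (−): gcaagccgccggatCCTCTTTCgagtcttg
Rpl35a, chr16:33056472-33056501 (+): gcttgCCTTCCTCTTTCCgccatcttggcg
Rps2, chr17:24720053-24720082 (+): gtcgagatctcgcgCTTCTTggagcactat
Rpsa, chr9:120127756-120127785 (+): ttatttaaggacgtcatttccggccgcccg
Rpl4, chr9:64173377-64173406 (+): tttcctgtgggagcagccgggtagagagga
Rpl22l1, chr3:28805498-28805527 (+): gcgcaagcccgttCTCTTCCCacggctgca
Rpl22, chr4:152325716-152325745 (+): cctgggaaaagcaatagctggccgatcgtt

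The genes shown hold a run more often than the members do, so they are no sample of them. The windows of Rpsa, Rpl4 and Rpl22 hold no such run, nor do the other listed start of Rpl22 and the 2 other starts of Rpl35a. Rps19, Rps12, Rps28, Rplp0, Rpl5 and Rpl10a, not shown, had no run at any listed start either. Of the 60 members with an entry, 29 (48.3%) had a run that began within 5 bases of the start, beside 21.1% of 26965 other genes. With the run beginning exactly at the start the counts were 13 of 60 members (21.7%) and 2.97% of the other genes, and within 10 bases 36 of 60 members and 34.3% of the other genes. Only the strand of the gene was searched, and a match is a description of these letters.

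The libraries held between 20804247 and 43351424 estimated counts. In the values below, CPM is counts scaled to a library total of 1000000 over the 17383 protein-coding and member genes tested, with TMM, a normalization that aligns libraries on the genes that move least. Levels between genes are compared only as CPM per kilobase of transcript. The thalamus marker list summed to a median of 1655 CPM in DMT and to medians of at most 127 elsewhere, and the striatum list to 2730 in Nacc, 1048 in BLA and at most 156 elsewhere. The amygdala list did not mark BLA (1035 CPM, with 1862 in ACC), and BLA libraries carried choroid plexus markers over a wide range, 7.46 to 5586 CPM. Of the 41 Nacc libraries, 12 matched another mouse than the labelled one at 60 genes, none of them members, whose level is steady within a mouse, and no library of the other regions did. Some of the 12 matched a mouse of the other set or of another condition.

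The 82 genes together made up about 1% of all counts. Their share of a library had a median of 0.864% in mPFC (range 0.784 to 0.947%), 0.858% in ACC (0.798 to 1.41%), 1.02% in Nacc (0.866 to 1.15%), 1.01% in BLA (0.896 to 1.08%), 0.860% in DMT (0.800 to 1.21%) and 0.922% in vHipp (0.793 to 1.02%). Nacc and BLA had the highest medians, and every region's range overlapped that of every other. In ACC and DMT, 3 libraries stood apart from the rest of their region.

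**Figure D1:**
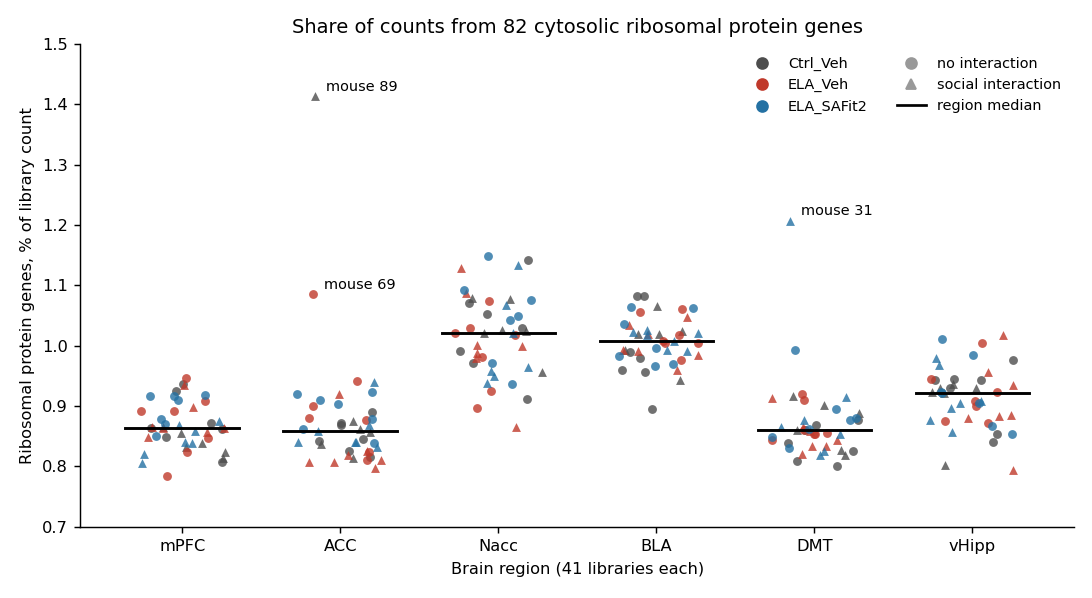
Share of each library's counts taken by the 82 cytosolic ribosomal protein genes (y axis, percent, not starting at 0) in 6 regions, with 41 libraries each; colour gives the condition, shape the set and the line the region's median. Nacc (1.02%) and BLA (1.01%) lie highest, and the ACC libraries of mice 89 (1.41%) and 69 (1.09%) and the DMT library of mouse 31 (1.21%) stand above the rest of their regions.

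In the ACC library of mouse 89 (Ctrl_Veh, SocialInteraction), 80 of the 82 members were above the 39 ACC libraries other than those of mice 89 and 69, by a median of 0.68 on the log2 scale over the region's median. In that of mouse 69 (ELA_Veh, NoInteraction) 74 of 82 were above the same 39, by a median of 0.29, and in the DMT library of mouse 31 (ELA_SAFit2, SocialInteraction) 76 of 82 were above all 40 others, by a median of 0.45. Of all genes with a mean of at least 1 CPM over all libraries, 26.25%, 10.21% and 16.51% were above the same other libraries. Their total counts (28116725, 30202984 and 31548212) were within the range of the rest. Their astrocyte markers summed to 2546 and 3094 CPM in ACC, where the other libraries had 3494 to 4364, and to 2295 CPM in DMT, where the others had 2574 to 3144. Red cell markers summed to 329 CPM in the DMT library, where the others had 126 to 251, and neuron, oligodendrocyte, microglia and endothelial markers were within the others' range. What cell content contributed to the members' levels in these libraries was not tested. Counts of members without them are given below for the regions and for the conditions in ACC.

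Per length, the most abundant members were the stalk protein gene Rplp1 (478 ± 90.6 CPM per kilobase, SD over all libraries), Rpl13a (430 ± 45.1), Rps24 (361 ± 28.3), Rps15 (353 ± 33.5) and Rps29 (345 ± 44.1). The least abundant were Rps3a2 (2.09 ± 0.44), Rps4l (5.43 ± 3.79), Rps27l (10.8 ± 1.74), Rpl7l1 (18.04 ± 1.17) and Rps20 (20.2 ± 1.995). Apart from Rps20, whose median annotated transcript of 3706 bases is far longer than its coding part, the lowest levels were those of paralogs of an abundant member. Of the 82 members, 28 were among the 500 most abundant genes per length and 0 among the first 100. The counts of the 48 large-subunit members together were higher than those of the 34 small-subunit members in every library, with 6375.4 and 4099 CPM at the median in Nacc. The log2 ratio of small to large was steady, with medians from −0.71 in DMT to −0.64 in Nacc and a range over all libraries of −0.75 to −0.58.

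Each region was compared with the mean of the other 5, within mice, in a fit across all 17383 genes. Most members were higher in Nacc and BLA and lower in mPFC, ACC and DMT. In Nacc 70 of 82 members were higher and 6 lower, where 39.5% of all genes tested were called higher and 38.6% lower. In BLA 67 were higher and 4 lower (39.2% and 35.8% of all genes). In mPFC 2 were higher and 61 lower (36.8% and 38.2%), in ACC 7 and 47 (35.3% and 40.6%) and in DMT 10 and 62 (42.7% and 43.7%). In vHipp the members were divided, with 33 higher and 28 lower (38.3% and 41%). Without the 3 libraries that stood apart, higher and lower were 72 and 6 in Nacc, 72 and 4 in BLA, 4 and 61 in mPFC, 7 and 58 in ACC, 10 and 65 in DMT and 36 and 28 in vHipp. Called means an adjusted p under 0.05 by edgeR's quasi-likelihood test with Benjamini-Hochberg adjustment over all genes.

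These differences were small. The members' median log2 difference was 0.13 in Nacc, 0.10 in BLA, −0.13 in DMT, −0.08 in mPFC, −0.05 in ACC and 0.02 in vHipp, where the medians of all genes lay between −0.02 and 0.01. The 758 other genes that were as short and abundant had medians between −0.04 and 0.04, with their highest in DMT, where the members were lowest. Past 0.5 on the log2 scale were 3 members in DMT (Rps4l, Rps2 and Rplp1, where 35.8% of all genes were called that far in either direction) and Rps4l in mPFC (19.4%), ACC (19.4%) and BLA (18.2%). None of the members moved that far in Nacc (21.5%) and vHipp (24.3%). Of the 82 members, 45 were highest by median in Nacc, 18 in BLA, 13 in vHipp, 4 in DMT, 1 in mPFC and 1 in ACC, and 40 were lowest in DMT. From their lowest to their highest region, members moved by a median of 0.28 on the log2 scale (0.125 to 2.29).

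With total counts in place of TMM, the split in vHipp was 24 higher and 36 lower, where it was 33 and 28 with TMM. Leaving out the 12 mismatched Nacc libraries, 67 members were higher and 6 lower in Nacc. Within Nacc the library with the lowest striatum sum (969 CPM, labelled mouse 69) had 10330 CPM over all members and that with the highest (3679 CPM, labelled mouse 39) had 12260 CPM. Both are among the 12 mismatched libraries. The library with the highest cortex sum (1459 CPM, mouse 99) had 9206 CPM and that with the lowest (154.5 CPM, mouse 33) had 11730 CPM. In BLA the library with the lowest choroid plexus sum (7.46 CPM) had 10600 CPM over all members and that with the highest (5586 CPM) had 9842 CPM. What neighbouring tissue in a punch contributed to the members' levels was not tested.

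**Figure D2:**
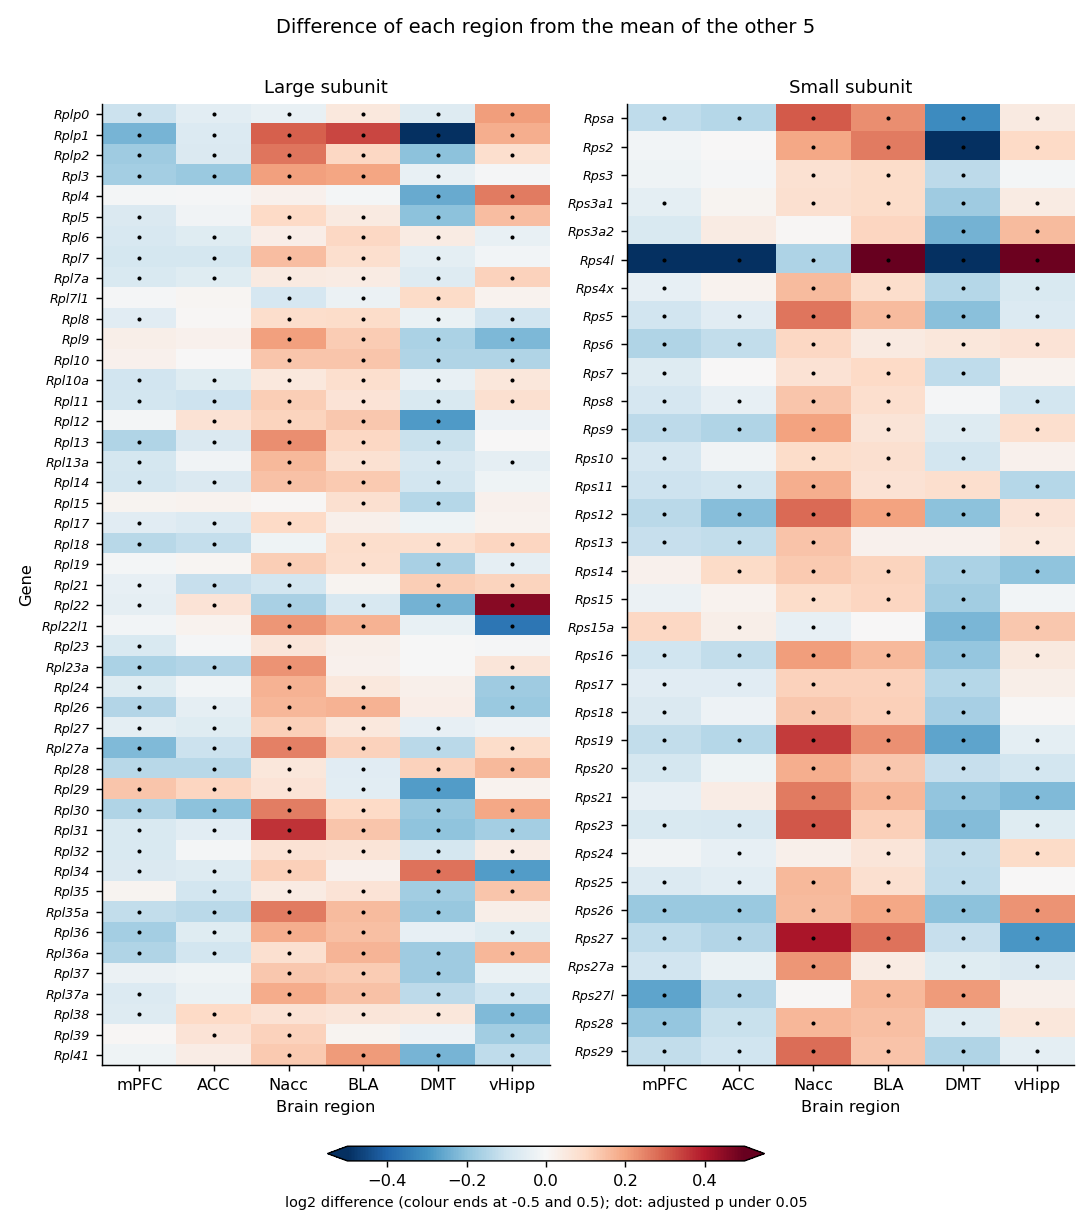
Difference of each region from the mean of the other 5 (colour, log2, with colours ending at −0.5 and 0.5) for large-subunit (left) and small-subunit (right) genes, with 1 member not drawn; dots mark an adjusted p under 0.05 in the fit across all genes. The Nacc and BLA columns are mostly red (70 and 67 of all 82 members called higher) and the mPFC, ACC and DMT columns mostly blue (61, 47 and 62 called lower), with Rpl22 and Rpl34 running against this.

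The stalk of the large subunit, which recruits elongation factors, is formed by Rplp0, Rplp1 and Rplp2. Rplp1 ranged from 162 to 254 CPM in DMT (median 171), from 168 to 240 in mPFC (204), from 238 to 337 in Nacc (280) and from 245 to 321 in BLA (280). It was higher in BLA (log2 difference 0.33), Nacc (0.30) and vHipp (0.18) and lower in DMT (−0.51), mPFC (−0.23) and ACC (−0.07), all called. Rplp2 was higher and lower in the same regions, from 0.27 in Nacc to −0.21 in DMT. Rplp0, the protein that anchors them, did not: it was highest in vHipp (0.21) and a little lower in Nacc (−0.04). The stalk genes thus differed in which region held their highest level.

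Rpl5 and Rpl11, which bind the 5S ribosomal RNA and can also bind Mdm2, moved by at most 0.21 on the log2 scale in any region. Rpl5 was lower in DMT (−0.21) and higher in vHipp (0.15) and Nacc (0.10), and Rpl11 was higher in Nacc (0.12) and lower in ACC (−0.11). Rpl3, which lies near the peptidyl transferase centre, was lower in ACC, where it ranged from 223 to 356 CPM (median 243, −0.19). Rpl4 was higher in vHipp, with 357 to 453 CPM (median 398, 0.26, SE 0.010). Rpl31 was higher in Nacc (144 to 217 CPM, median 176, 0.36) and Rpl12 lower in DMT (83 to 125 CPM, median 90.8, −0.28). Rpl30 was lower in ACC (−0.21), where it ranged from 44.2 to 79.6 CPM.

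Rpl34 went against the other members. It was higher in DMT, with 34.4 to 63.6 CPM (median 44.5, log2 difference 0.27, SE 0.019), and lower in vHipp, with 24.9 to 38.3 CPM (median 32.8, −0.28). Rpl21, Rpl28 and Rpl7l1 were also higher in DMT, by 0.12, 0.11 and 0.10. In vHipp Rpl9 and Rpl38 were lower (−0.22 for each). Rpl29 was called higher in mPFC (0.14) and ACC (0.11) and lower in BLA (−0.05) and DMT (−0.28). Pseudogene copies of Rpl29 held more counts than the gene (below), and those of Rpl34 and Rpl21 also held many, so the levels of these genes are uncertain. The flattest members were Rpl23, whose region medians lay between 115 and 125 CPM, Rpl32 and Rpl10a, with ranges of 0.125, 0.136 and 0.142 on the log2 scale.

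Among small-subunit genes, Rps27 had the largest difference in Nacc. It ranged from 88.5 to 141 CPM there (median 111.5, log2 difference 0.41, SE 0.020), from 89.6 to 116 in BLA (median 102, 0.27), and from 59.8 to 90.6 in vHipp (median 73.4, −0.29). The highest vHipp library lay only just above the lowest Nacc library. Rps19, whose loss of function causes Diamond-Blackfan anaemia, ranged from 90.1 to 136 CPM in Nacc (median 111.3, 0.35), and Rps23 from 143 to 201.1 CPM (median 169, 0.31). Rpsa, which is also known as a laminin receptor, was higher in Nacc (178 to 346 CPM, median 283, 0.30) and BLA (0.23) and lower in DMT (125 to 241 CPM, median 188, −0.31). Rps2 was higher in BLA (106.6 to 204 CPM, median 147, 0.26) and lower in DMT (70.8 to 132 CPM, median 90.4, −0.54, SE 0.020).

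Rps26, another Diamond-Blackfan gene, was higher in vHipp (75.6 to 132 CPM, median 102.8, 0.23) and lower in ACC (−0.18). Rps12 was lower in ACC (70.2 to 132 CPM, median 81.5, −0.21), and Rps28 in mPFC (42.5 to 57.8 CPM, median 51.7, −0.19), where Rpl27a was lower by a like amount (122 to 151 CPM, median 135, −0.22). Rps15a went the other way, higher in mPFC (104.99 to 126 CPM, median 117, 0.10) and lower in Nacc (−0.04). Rps6, the substrate of S6 kinase downstream of mTORC1, was lower in mPFC (−0.15) and ACC (−0.13), higher in Nacc (0.10) and, unlike most members, higher in DMT (0.06). Rps27a, made as a fusion with ubiquitin, was higher in Nacc (0.22). Of the X-linked members, Rps4x and Rpl10 were higher in Nacc and BLA (0.16 and 0.09; 0.14 and 0.14) and lower in DMT (−0.14 and −0.15) and vHipp (−0.08 and −0.15), whereas Rpl36a was higher in vHipp (0.17). Rpl39, also X-linked, had its highest region median in Nacc (39.1 CPM) and its lowest in vHipp (33.7 CPM).

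Several members are paralogs, close relatives made by gene duplication that can take the same place in the ribosome. The clearest contrast was between Rpl22 and Rpl22l1, where the protein of the second can stand in for that of the first. In vHipp Rpl22 ranged from 70.0 to 94.9 CPM (median 83.5), above every library of 3 of the other 5 regions, with a log2 difference of 0.45 (SE 0.014, edgeR adjusted p = 3.35e-80). Rpl22l1 there ranged from 16.5 to 34.3 CPM (median 24.6), with a difference of −0.36 (SE 0.025). Per length, Rpl22l1 stood at 112% of Rpl22 in vHipp (76.9 to 137%), at 224% in Nacc (159 to 259%) and at 209% in BLA (147.5 to 267%). The highest vHipp library thus lay below every Nacc, BLA, ACC and DMT library in this ratio, and within reach of the lowest mPFC library (136%). These ratios use annotated transcript lengths, and their order between regions does not depend on them.

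Rps4l, annotated as a pseudogene of the X-linked Rps4x, had the largest difference of all members. In BLA it ranged from 6.95 to 13.4 CPM (median 10.3), above every library of 4 of the other 5 regions, with a log2 difference of 1.80 (SE 0.041, edgeR adjusted p = 7.36e-103). In vHipp it ranged from 2.74 to 8.57 CPM (median 4.76, 0.49), and in mPFC (median 2.77, −0.53), ACC (2.11, −0.86), DMT (2.22, −0.75) and Nacc (3.27, −0.15) it was lower. It reached 8.33% of Rps4x per length in BLA (5.55 to 11.4%) and 1.78% in ACC (1.08 to 3.25%). The BLA library with the lowest choroid plexus sum (7.46 CPM) had 7.51 CPM of Rps4l, that with the highest (5586 CPM) had 8.53 CPM, that with the lowest striatum sum (397 CPM) had 10.1 CPM, and that with the highest (2770 CPM) had 6.95 CPM. Every BLA library was above the other regions' medians, so the choice of these libraries adds nothing to that. What neighbouring tissue contributed to the level of Rps4l was not tested.

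The other paralogs stayed low beside their partners. Rps27l, a p53-responsive paralog, stood at 4.90% of Rps27 per length (3.01 to 7.64%, all libraries). It was lower in mPFC (3.46 to 5.66 CPM, median 4.57, −0.26) and higher in DMT (5.03 to 7.40 CPM, median 6.07, 0.21). Rpl7l1 stood at 11.9% of Rpl7 (8.86 to 14.6%) and moved little between regions, and Rps3a2 at 1.001% of Rps3a1 (0.314 to 1.59%). Rpl36al, outside the name rule, stood at 40.3% of Rpl36a (30.95 to 59.9%), with its highest share in DMT (51.4%), where it was higher (0.23) while Rpl36a was lower (−0.18). Members such as Rpl7a (and Rpl10a, Rpl13a, Rpl23a, Rpl27a, Rpl35a, Rpl37a and Rps15a, whose symbols also end in a) encode distinct proteins and not paralogs of the gene with the plain number.

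**Figure D3:**
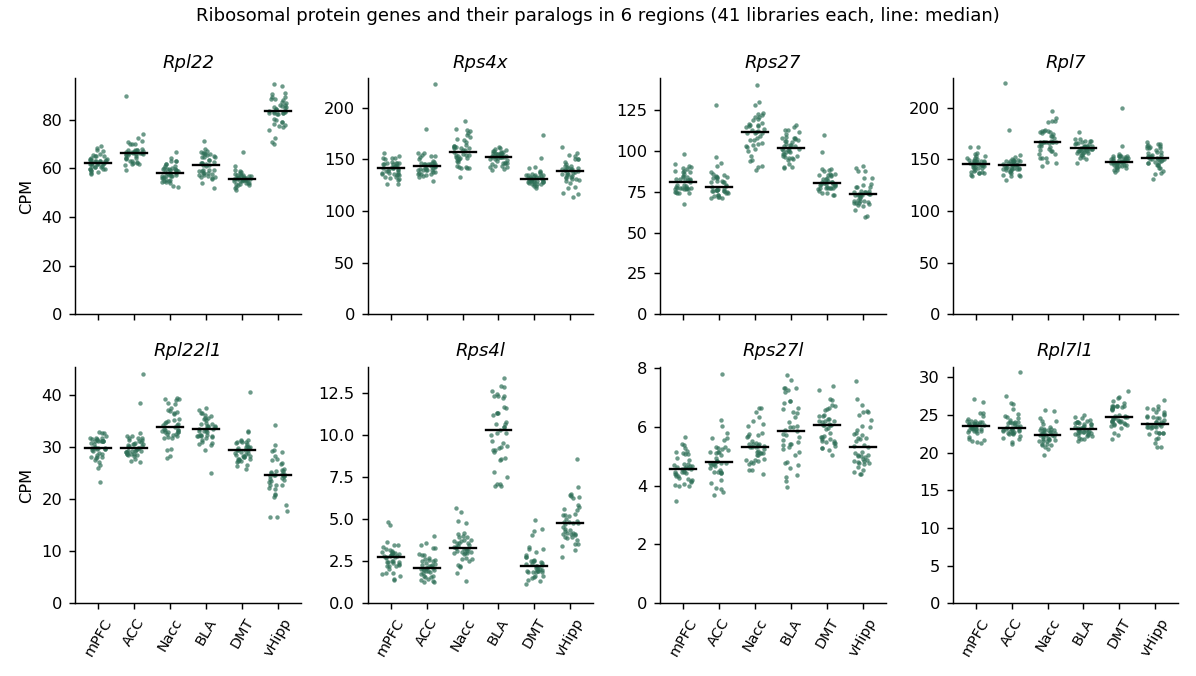
Levels (CPM, y axes from 0) of Rpl22, Rps4x, Rps27 and Rpl7 (top) and of their paralogs Rpl22l1, Rps4l, Rps27l and Rpl7l1 (bottom) in 41 libraries of each region; lines are medians. In vHipp Rpl22 is highest (median 83.5 CPM) and Rpl22l1 lowest (24.6 CPM), and Rps4l is highest in BLA (10.3 CPM).

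The mice are outbred, and the 6 regions of a mouse share its genome. A joint test of the differences between mice of the same group called 52 of 82 members (63.4%) where 49.5% of all genes tested were called. For most members the mice differed little: averaged over 5 regions without Nacc, the share of variance between mice had a median of 9.64% over the members and 9.78% over all genes. The 5 largest shares were those of Rpl35a (96.2%), Rpsa (84.6%), Rpl30 (74.4%), Rps2 (73.9%) and Rpl10a (58.2%). Next came Rps4l (47.2%), Rpl13a (43.9%) and Rps26 (25.9%).

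Rpl35a varied most. Its mean over 5 regions ran from 26.6 to 88.8 CPM, and the mice fell into 3 ranges with nothing between them: 10 mice at 26.6 to 29.9, 21 at 49.8 to 57.1 and 10 at 77.4 to 88.8 CPM. The gaps were 0.74 and 0.44 on the log2 scale, and the next widest was 0.11. By group, the means ran from 26.7 to 82.4 CPM (median 49.8) in Ctrl_Veh and from 26.6 to 54.3 (50.2) in ELA_Veh without social interaction, and from 29.2 to 78.1 (52.6) in ELA_SAFit2. After social interaction they ran from 50.4 to 88.8 (median 79.1) in Ctrl_Veh, from 28.2 to 55.2 (51.3) in ELA_Veh and from 26.9 to 81.3 (50.1) in ELA_SAFit2.

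A processed pseudogene moved opposite to it. Gm10243 (chr6:48523518-48523850, +, GRCm38) is a copy of the Rpl35a coding sequence, whose own gene lies at chr16:33056453-33060189 (+), and differs from it at 1 of 333 bases, G156A counted from 1 at the coding start. All 5 copies of Rpl35a with at least 10000 counts carried this difference. Within the coding sequence, reads can be told apart only where they cross this base. The coding sequence around it is shown with the base in capitals (positions 141 to 171).
Rpl35a: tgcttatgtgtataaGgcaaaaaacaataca
Gm10243: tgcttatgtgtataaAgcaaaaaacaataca

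Gm10243 had 40.4 CPM in the mouse with the lowest Rpl35a (mouse 99, 26.6 CPM) and 0.127 CPM in that with the highest (mouse 89, 88.8 CPM), and ran from 0 to 43.6 CPM over mice, with 91.3% of its variance between them. Added together, Rpl35a and its copies were nearly level, from 69.7 to 92.9 CPM. Their coefficient of variation between mice fell from 35.1% for Rpl35a alone to 5.86%, and the share of variance between mice from 96.2% to 33.1%. So the mice differed in how counts were divided between gene and copies far more than in their sum. Whether reads were assigned to the wrong one in mice whose sequence differs from the reference was not tested.

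**Figure D4:**
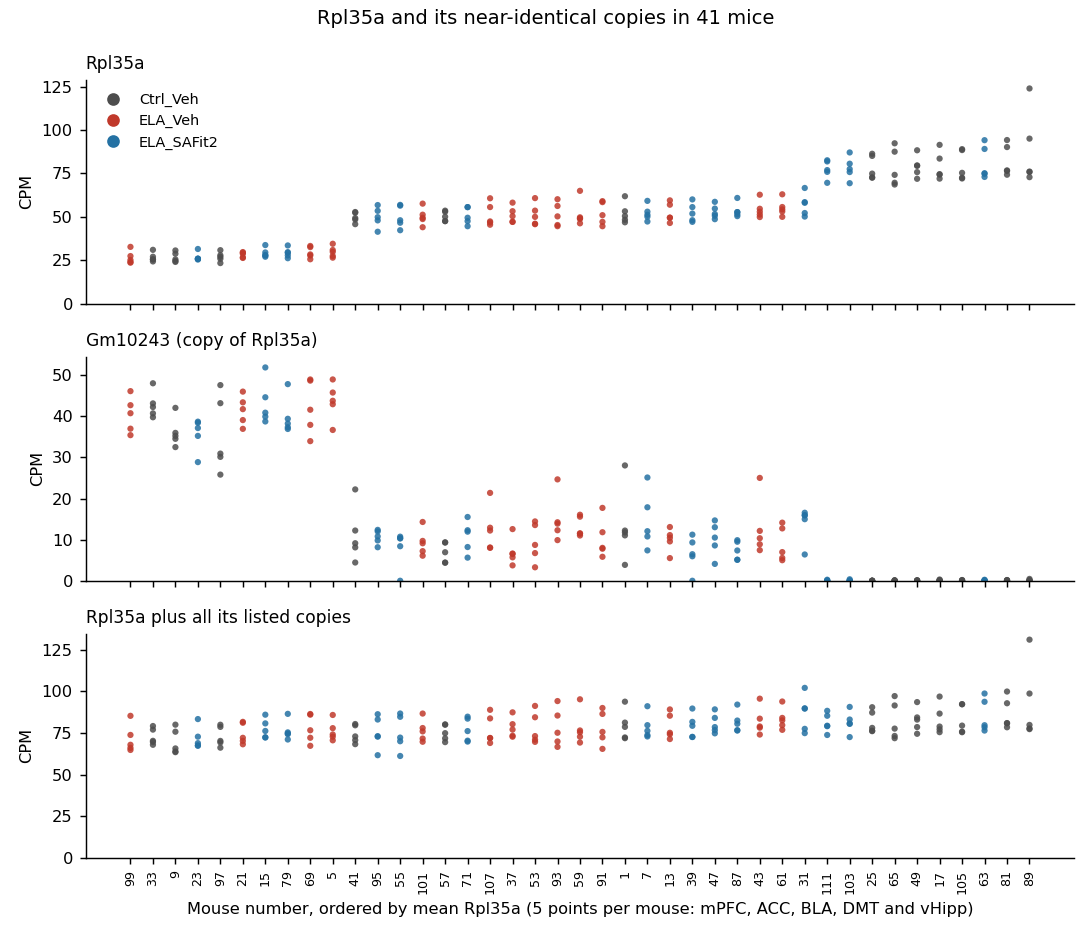
CPM of Rpl35a (top), of its copy Gm10243 (middle) and of Rpl35a plus its copies (bottom) in each of 41 mice, ordered by their mean Rpl35a, with 5 points a mouse for mPFC, ACC, BLA, DMT and vHipp and colour for the condition; y axes start at 0. Rpl35a lies in 3 ranges (10, 21 and 10 mice), Gm10243 runs in the opposite order, and the sums lie between 69.7 and 92.9 CPM by mouse.

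Rpl30 and Rpsa behaved in the same way. Rpl30 (chr15:34440505-34443640, −) had 50.6 CPM in mouse 57, where its copy Gm12191 (chr11:49678710-49679057, −) had 15.9 CPM, and 80.2 CPM in mouse 81, where the copy had 0.446 CPM. Gm12191 differs at 1 of 348 bases, G96A, shown in capitals with 15 bases on either side.
Rpl30: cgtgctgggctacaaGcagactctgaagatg
Gm12191: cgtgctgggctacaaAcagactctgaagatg

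Rpsa (chr9:120127689-120132369, +) had 155 CPM in mouse 57 with 119 CPM of Rpsa-ps10 (chr3:150072658-150073542, −), which differs at 6 of 885 aligned bases, and 279 CPM in mouse 89 with 1.89 CPM of the copy. With copies added, the variation between mice fell from 12.6% to 4.87% for Rpl30 and from 14.6% to 6.73% for Rpsa. Rps2 (chr17:24718116-24721929, +) did not follow: its copy Rps2-ps13 (chrX:52898588-52899469, +), with 7 differences in 882 bases, was itself high and varied from 93.6 to 221 CPM, and the sum varied as much as the gene (12.6% and 12.2%). For Rpl10a adding copies changed nothing (7.14% both ways), and 7 mice with 110.95 to 115 CPM lay below the rest at 129 to 147.

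Near-identical copies were common. Of the 82 members, 77 had at least 1 of 582 copies elsewhere in the genome (at least 95% identity over at least 80% of the coding sequence), and 57 of these held 10000 counts or more. The copies' counts came to 323% of the gene's own for Rpl29, 275% for Rpl26, 154% for Rps2, 127% for Rpl21, 103.3% for Rps18, 69.8% for Rpl34, 48.7% for Rpl35a and 33.2% for Rpl3. The levels of these members are therefore uncertain. Adding the counts of copies to their member left 72 higher and 5 lower in Nacc, 71 and 2 in BLA and 10 and 64 in DMT. The mouse-specific levels were also set against the Nacc labels. In the 12 libraries that matched another mouse at other genes, Rpl35a lay a median of 0.71 (log2) from the labelled mouse and 0.12 from the matching one, and 0.09 from the labelled mouse in the other 29 Nacc libraries. Of the 12, 11 were closer to the matching mouse in Rpl35a, 10 in Rpl30, 10 in Rps2, 8 in Rpsa, 7 in Rpl10a, 7 in Rps4l, 5 in Rps26 and 4 in Rpl13a, so that this did not hold for every gene.

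The conditions were compared within each region and set, which asks whether adversity or SAFit2 shifted ribosomal protein mRNA in adult brain. None of the 82 members was called in any of the 36 comparisons by edgeR or DESeq2, where edgeR called 0 of all genes tested in 33 comparisons and 1 gene in each of 3, which is 0.00632% in mPFC and 0.00636% in vHipp. No member was called either in the 6 comparisons of the regions summed by mouse or in the tests of whether a condition effect differed between the sets. Of all genes tested, the comparisons of summed regions called 0, and the tests between the sets called 0.0318% in ACC, 0.0315% in Nacc, 0.0379% in DMT, 0.0382% in vHipp and 0.0403% with the regions summed for ELA_SAFit2 minus ELA_Veh, and 0 otherwise. At an unadjusted p under 0.05 were 186 of the 2952 values of members in the 36 comparisons (6.301%), where the share of all genes had a median of 4.14% over comparisons (1.354 to 12.48%). With the regions summed it was 16 of 492 values (3.252%, with 4.99% of all genes at the median). In the tests between the sets within regions it was 6.843% of 1476 values (2.98% of all genes at the median). A share pooled over comparisons and a median over comparisons are not like for like. Of the 186, ACC after social interaction held 57 in ELA_Veh minus Ctrl_Veh and 15 in ELA_SAFit2 minus Ctrl_Veh (12.5% and 9.79% of all genes). The tests between the sets for these pairs in ACC held 61 and 19 (11.5% and 4.33% of all genes). All of these use the controls with the ACC library of mouse 89. The members' median standard error was between 0.039 and 0.076 on the log2 scale, and outside ACC the members' median difference was within 0.10 of 0 in every comparison.

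ACC after social interaction had the largest shift. The members' share of counts had a low of 0.814%, a median of 0.860% and a high of 1.41% in Ctrl_Veh (n = 6) and of 0.798, 0.811 and 0.921% in ELA_Veh (n = 7), so that the groups overlapped. In ELA_Veh minus Ctrl_Veh, 82 of 82 members had a difference below 0, with a median of −0.18, and 57 had an unadjusted p under 0.05, beside 12.5% of all genes tested. The smallest p belonged to Rpl36a (−0.25, SE 0.075), Rps21 (−0.33) and Rplp0 (−0.20), each with an adjusted p of 0.339 by edgeR with Benjamini-Hochberg adjustment. The control group holds the ACC library of mouse 89. Without the 3 libraries that stood apart, 7 members had such a p, all lower, and the median was −0.04. Those libraries were picked for their high member level, so leaving out that of mouse 89 raises this difference by construction. The shares of all genes without the 3 are not given, here or below. The 748 short and abundant non-members had a median of −0.05 in the same comparison with all libraries. ELA_SAFit2 minus Ctrl_Veh, which shares those controls, had 15 members lower at such a p with all libraries (9.79% of all genes) and 3 higher without the 3. In the test of whether the ELA_Veh effect in ACC differed between the sets, 61 members had an unadjusted p under 0.05 with all libraries (11.5% of all genes) and 13 without the 3, and 0 were called.

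In Nacc without social interaction, 22 members had an unadjusted p under 0.05 in ELA_SAFit2 minus ELA_Veh, all higher, beside 11.5% of all genes, with a median over all members of 0.10. The smallest p were those of Rpl28 (0.11, adjusted p = 0.216), Rps2 (0.39, SE 0.114, adjusted p = 0.232) and Rpl29 (0.18), by edgeR. With total counts 8 members had such a p and without the 12 Nacc libraries of doubtful label 5. The difference of Rps2 was 0.11 with its copies added. In DMT after social interaction ELA_SAFit2 minus ELA_Veh had 10 members higher at an unadjusted p under 0.05 (4.90% of all genes), and 2 higher and 3 lower without the 3 libraries. The DMT library left out was picked for its high member level. The shares of all genes under these alternatives in Nacc and DMT are not given. In mPFC after social interaction ELA_Veh minus Ctrl_Veh had 13 higher and 1 lower (4.23% of all genes), led by Rps18 (0.17, SE 0.054) and Rpl18 (0.11), with an adjusted p of 0.939 for each by edgeR.

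Differences of members that vary with their copies were widest and least certain. With the regions summed, Rpl35a differed by −0.60 (SE 0.243) between ELA_Veh and Ctrl_Veh after social interaction (edgeR adjusted p = 0.807), and by −0.08 (SE 0.040) with its copies added. Rps2 differed by 0.27 between ELA_SAFit2 and ELA_Veh without social interaction (adjusted p = 0.658 by edgeR) and by −0.001 with copies. Rplp0 differed by 0.11 (SE 0.026) between ELA_SAFit2 and ELA_Veh after social interaction (edgeR adjusted p = 0.461) and by 0.02 with the counts of copies such as Gm8730, a pseudogene on chromosome 8 that itself ran from 0.369 to 11.2 CPM over mice.

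**Figure D5:**
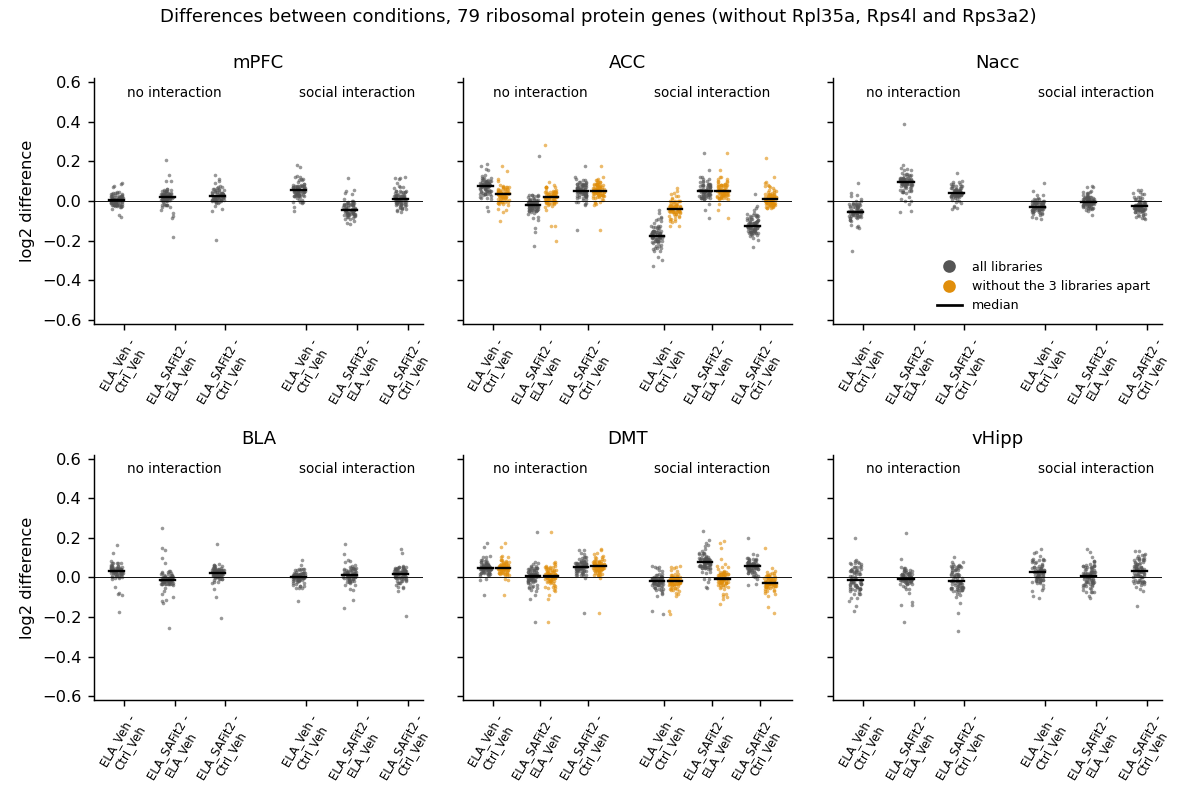
Log2 differences between conditions within each region and set for 79 members (Rpl35a, Rps4l and Rps3a2 are left out for scale); grey points use all libraries, orange ones leave out the 3 libraries that stand apart, and lines are medians. The members of ACC after social interaction lie below 0 in ELA_Veh minus Ctrl_Veh, with a median of −0.18 over all 82, and near −0.04 without those libraries.

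The sets were compared with conditions averaged, which asks whether ribosomal protein mRNA differed between mice taken after 10 min of social interaction and mice taken without it. Of all genes tested, 7.27% were called in mPFC, 4.15% in ACC, 1.46% in BLA, 1.56% in DMT, 1.21% in vHipp, 8.54% with the regions summed and 0 in Nacc. The 0 in Nacc is limited by doubtful set labels. The Nacc library labelled mouse 1 (NoInteraction) matched mouse 89 (SocialInteraction), and that labelled mouse 17 (SocialInteraction) matched mouse 81 (NoInteraction). Of the members, 1 was called, in mPFC. Rpl37a ranged from 65.6 to 83.6 CPM (median 77.4) in 21 mice without interaction and from 65.01 to 81.9 (median 71.1) in 20 after it, so that the ranges overlapped, with a log2 difference of −0.09 (SE 0.028, edgeR adjusted p = 0.0424). In mPFC 16 of 82 members had an unadjusted p under 0.05, beside 19.5% of all genes tested. Of the 16, 15 were lower, among them Rps27l (−0.12) and Rpl37 (−0.06), and Rpl7l1 was the 1 that was higher (0.05). The count of 1 depended on the setting, with between 0 and 5 members called.

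Related genes were also compared in mPFC after social interaction, where 7.27% of all genes tested were called in either direction. Of 36 translation factors, 7 were called higher and 1 lower, led by Eif4a1 (0.10), the helicase of the cap-binding complex, Tpt1 (0.09) and Eif3b (0.09). Of 38 ribosome biogenesis genes 1 was higher and 3 lower, with Ubtf (0.16), a factor of ribosomal RNA transcription, Nop58 (−0.12) and Gnl3 (−0.07). Of 19 genes that control the synthesis of ribosomal proteins, Rheb, the activator of mTORC1, was higher (0.18) and Maf1 lower (−0.08). The biogenesis and control lists thus had few called genes, near the share of all genes. Of the 4 other cytosolic ribosomal protein genes 0 were called.

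By region, the 36 translation factors had 9 higher and 22 lower in Nacc, where 70 of 82 members were higher, and 17 and 12 in BLA. The 38 biogenesis genes had 16 higher and 14 lower in Nacc and 9 and 22 in DMT, and the 78 mitochondrial ribosomal protein genes 35 and 21 in Nacc and 12 and 35 in BLA. Of all genes tested, 39.5% were called higher and 38.6% lower in Nacc and 39.2% and 35.8% in BLA. In DMT these shares were 42.7% and 43.7%, and in mPFC 36.8% and 38.2%. The counts of biogenesis genes in Nacc and of translation factors in BLA were near the shares of all genes. The 4 other cytosolic ribosomal protein genes were closer to the members, with 3 higher and 1 lower in Nacc, 1 and 3 in DMT and 0 and 4 in mPFC. Among them Fau was higher in Nacc (0.17). Of 93 nuclear genes of oxidative phosphorylation 56 were higher and 13 lower in Nacc, but 15 and 53 in BLA, where 67 members were higher.

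Across the libraries of 41 mice and 6 regions, with levels centred within each region, a member's level correlated with the mean of the other members by a median r of 0.83, from 0.19 to 0.92, and 72 of 82 were over 0.5. Without the 3 libraries that stood apart the median was 0.75. The libraries of a mouse share its genome, and r is given as a description. Among 13673 non-members, whose median r was −0.01, levels among those most like the mean member were those of Fau (0.89), a ubiquitin-like fusion with a small-subunit protein, the elongation factor subunit Eef1b2 (0.86), the prefoldin subunit Pfdn5 (0.83) and the elongation factor Eef1a1 (0.81). Without those libraries these r were 0.81, 0.80, 0.71 and 0.79. The mean member also followed the mean of short non-members (r = 0.61), and it did not follow the total count of a library (r = 0.02).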

How the data were processed

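The authors prepared stranded poly-A libraries and sequenced them as paired reads, and the deposited table holds salmon's estimated counts (expected counts) per gene, of which 12.12% were not whole numbers. The submitters' processing notes name STAR, DESeq2 and GRCm39, and versions are not given in the sources used here. Estimated counts were rounded. Genes that were not protein-coding (other than members), or with under 100 counts in sum or in fewer than 6 libraries, were left out. Tests used edgeR 4.0.16 in R 4.3.3 (quasi-likelihood, TMM, Benjamini-Hochberg over all genes tested, threshold 0.05). Regions were fitted with mouse as a block, conditions in a fit of 6 groups within each region and on counts summed by mouse, and mice jointly over 35 differences within groups. DESeq2 1.42.0 and other settings were run as alternatives, some chosen after seeing the data. The fits were tested on simulated data.

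The mouse number pairs the regions, since the labels give the same number to libraries of the same mouse. Deviations of the same mouse in different regions correlated by a median of 0.05 to 0.43 over the 15 pairs of regions. Genes are named where they had the 5 highest or 5 lowest levels per length, are paralogs, were among up to 5 called members with the largest difference each way in a comparison (the 3 smallest p where none was called), had the 5 largest shares of variance between mice, or were the 5 non-members most like the mean member. Lists are given by counts with up to 3 examples. Values of 2 genes are not reported here by name, and they stay in the counts. Rpl5, Rpl11, Rps6, Rps27a and the X-linked genes were named for their roles, and Rpl23, Rpl32 and Rpl10a for their flat levels, after their values were seen. The members and lists were chosen with earlier results of these data known. Coordinates, transcript lengths and copies come from GENCODE M21 on GRCm38, matched by gene ID with no conversion (52073 of 56691 IDs). Copies were found with BLAST+ 2.17.0. Litters were not used in any fit.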

Additional observations from a re-analysis of the deposited data

Results flagged for a closer look

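Within each group of 6 or 7 mice the highest and lowest values were compared with the rest by Dixon's criterion. The values were the members' share of counts and the levels of the 5 members that vary most between mice. Chance passes it in about 1 of 20 groups for normally distributed values. That rate does not hold for the 5 members, which were picked from these data for their variance, and Rpl35a fell into separate ranges. It was passed in 12 of 66 groups. The share was highest in the ACC library of mouse 89 in Ctrl_Veh after social interaction (1.4135%), in that of mouse 61 in ELA_Veh (0.92058%) and in that of mouse 79 in ELA_SAFit2 (0.93978%) of the same set. In DMT it was highest in mouse 31 (1.2071%) in ELA_SAFit2 after social interaction and in mouse 15 (0.9923%) in ELA_SAFit2 without it. In vHipp the lowest share in Ctrl_Veh after social interaction was that of mouse 89 (0.80193%), the mouse with the highest share in ACC.

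Averaged over regions, Rpl35a was low for its group in mouse 57 (50.364 CPM, Ctrl_Veh after social interaction) and mouse 21 (28.186 CPM, ELA_Veh after social interaction). Rpsa was high in mouse 1 (263.06 CPM, Ctrl_Veh without interaction) and low in mouse 57 (154.64 CPM, Ctrl_Veh after it). Rpl30 was low in mouse 59 (51.062 CPM, ELA_Veh after social interaction) and Rpl10a in mouse 5 (115.43 CPM, ELA_Veh without it). Mouse 57 thus had both a low Rpl35a and a low Rpsa for its group, though its Rpl35a lay within the commonest range over all mice (49.8 to 57.1 CPM).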

How the results depend on the processing

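Of 170 alternative values of the counts of called members, 161 were within 1.5 times the value reported and 9 were not. Without the 3 libraries that stood apart, 4 members were higher in mPFC (2 with all libraries). With total counts, 3 were higher in ACC (7 with TMM) and 0 lower in BLA (4), and with copies added 2 were lower in BLA. After social interaction, where 1 member was called, DESeq2 called 2, total counts 5, no filter on low counts 0, genes of all types 0, and 2 were called without the 3 libraries (Rpl37a in mPFC and Rpl39 in ACC). Rpl7l1 in BLA changed sign with total counts, from −0.03 to 0.02024. Counts for the conditions were 0 under every alternative run. Without mouse as a block, members called higher and lower were 2 and 60 in mPFC, 7 and 46 in ACC, 70 and 6 in Nacc, 66 and 4 in BLA, 10 and 60 in DMT and 31 and 28 in vHipp, so that the block changed no count by over 1.5 times. Of the values of named members, 2468 stayed on the same side of the threshold with no change of sign in a called value. A further 10 lost their call, 1 gained a call and 1, that of Rpl7l1 in BLA, changed sign. Leaving out each replicate in turn was not run, since groups held 6 or 7 mice. The copies, the 3 libraries and Nacc with the summed counts were alternatives chosen after seeing the data. Depth limits the members little, and reads shared with near-identical copies limit Rpl29, Rpl26, Rps2, Rpl21, Rps18 and Rpl34 most.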
